A study of Arabidopsis thaliana with 4 samples.

Results

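In whole seedlings of the prt6-1hyt1-1 double mutant of Arabidopsis thaliana, the genes of salicylic acid and immune signalling ranged from 0 reads to 46.5 TPM, a level corrected for gene length and library size. The 37 genes described here were chosen by their identifiers from the 37885 of the count table, as pathogenesis-related genes, enzymes of salicylic and pipecolic acid synthesis, signalling proteins, transcription factors, immune receptors, oxidases and camalexin enzymes. All 37 were present in the table and in the gene annotation. Of these, 30 had enough reads to pass edgeR's expression filter, which kept 19940 genes in all, and 7 did not. Those 7 were PR1, PR2, PBS3, NIMIN1, ALD1, FMO1 and CYP71A13.

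The RNA came from 4 libraries that the labels call biological replicates of a single group. Its seedlings were 7 days old, had grown in continuous light on agar medium lacking sucrose, and had received no treatment. The prt6-1 allele lies in PRT6, which encodes a ubiquitin ligase that recognises certain amino-terminal residues and marks such proteins for destruction (the N-degron pathway), and the sources used here tie hyt1 to no gene. The count table heads its columns hup40prt6_1 where the labels write prt6-1hyt1-1, or prt-16hyt1-1 for replicate 4, which was read as a misprint. Columns were matched to libraries by prt6-1 and the replicate number. No wild type, single mutant or infected seedlings were analysed here, so every value is a level in this double mutant and none is an effect of a mutation. PRT6 (AT5G02310) had 1659, 2016, 1858 and 1841 reads in replicates 1 to 4. Without a wild type these reads do not check the labels.

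Salicylic acid is a hormone of plant defence that acts mainly against pathogens that feed on living tissue. Plastids make its precursor isochorismate, which is exported, conjugated and broken down to the hormone in the cytosol. The NPR proteins bind it and work with TGA transcription factors on target genes such as PR1, while the lipase-like proteins EDS1, PAD4 and SAG101 relay signals from immune receptors and amplify its production. A parallel signal, N-hydroxypipecolic acid, is made from lysine and is needed for systemic resistance. At the cell surface, the flagellin receptor FLS2 and its partners trigger a burst of reactive oxygen and calcium within moments of detecting bacteria. WRKY transcription factors bind the W-box and either drive or restrain many of these outputs.

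The libraries held 24743656, 26155431, 25804589 and 24947145 counted reads in replicates 1 to 4. No pair of libraries matched within counting error, since a chi-square test of each pair called between 2150 and 4926 genes. On the leading axis of a principal component analysis of the genes kept, which held 41.6% of the variance, replicate 1 lay at 27.4 and the others between -12.5 and -6.15. The second axis held 33.4% and set replicate 3 at 22.5, against 0.547, -6.55 and -16.5 for replicates 1, 2 and 4. Replicate 2 stood apart in seed storage transcripts, with 1394 reads of CRA1 against 159, 86 and 102 in replicates 1, 3 and 4, and 998 reads of CRC against 1, 2 and 0. Of the 4 root markers, PYK10 and COBL9 were also highest in replicate 2, PYK10 with 145472 reads against 114450 to 128617 and COBL9 with 171 against 96 to 136. SHR was highest in replicate 4, with 358, 373, 310 and 396 reads, and SCR in replicate 1, with 925, 895, 882 and 850. Both organs of a seedling were represented in every library. Levels summed to 4020 to 4808 TPM for 4 root markers and to 25974 to 26969 TPM for 4 green shoot markers. Nearly all of the root sum was PYK10, with a mean of 4321 TPM. COBL9, SHR and SCR had 3.50, 10.1 and 19.5 TPM. The shoot sum was likewise carried by RBCS1A, RBCS3B and CAB2, with FAMA at 9.63 TPM. Of the senescence markers, SAG12 had 0 reads in every library and SAG13 had 5 to 22.

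To show the DNA next to these genes, the 250 bases before the annotated start were read from the TAIR10.1 genome on each gene's own strand, 5′ to 3′. PR2 and PR5 are printed because they are classical salicylic acid targets, the former near the limit of detection and the latter at an ordinary level. WRKY33 and WRKY70 are printed because they carry some of the clearest differences between libraries. Capitals mark the W-box core, searched as TTGACC and TTGACT, and the TGA factor core, searched as TGACG, on both strands.
PR2 (AT3G57260), chr3:21189968-21190217, minus strand: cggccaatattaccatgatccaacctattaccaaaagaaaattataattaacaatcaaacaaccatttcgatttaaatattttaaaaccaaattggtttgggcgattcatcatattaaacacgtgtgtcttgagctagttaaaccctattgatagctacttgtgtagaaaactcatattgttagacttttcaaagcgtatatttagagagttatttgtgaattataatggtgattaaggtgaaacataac
PR5 (AT1G75040), chr1:28177420-28177669, plus strand: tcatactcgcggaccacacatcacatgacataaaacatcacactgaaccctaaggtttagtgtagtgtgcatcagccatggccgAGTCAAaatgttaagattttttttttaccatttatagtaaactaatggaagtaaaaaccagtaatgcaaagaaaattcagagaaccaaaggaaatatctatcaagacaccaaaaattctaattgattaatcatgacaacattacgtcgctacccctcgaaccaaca
WRKY33 (AT2G38470), chr2:16107985-16108234, plus strand: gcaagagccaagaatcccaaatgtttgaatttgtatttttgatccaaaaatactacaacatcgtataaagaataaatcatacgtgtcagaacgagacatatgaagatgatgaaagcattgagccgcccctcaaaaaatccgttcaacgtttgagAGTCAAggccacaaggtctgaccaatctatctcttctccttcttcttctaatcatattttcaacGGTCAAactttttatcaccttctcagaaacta
WRKY70 (AT3G56400), chr3:20910624-20910873, minus strand: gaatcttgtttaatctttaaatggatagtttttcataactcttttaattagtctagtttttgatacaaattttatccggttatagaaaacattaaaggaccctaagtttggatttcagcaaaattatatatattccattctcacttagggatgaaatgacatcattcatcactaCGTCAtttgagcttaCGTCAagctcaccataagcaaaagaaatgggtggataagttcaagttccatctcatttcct
The PR2 window held none of the 3 motifs. The PR5 window held a W-box core 166 bases before the start, and the WRKY33 window held 1 at 96 and 1 at 32 bases. In the WRKY70 window the TGACG core stood at 76 and 61 bases before the start, and no marked site overlapped another. Over all 37 genes, 9 windows (24.3%) held a W-box core of either form, against 28.4% of the 27441 protein-coding genes. The TGACG core was in 10 windows (27.0%), against 18.6% of those genes. These are matches of letters in a short window, and they show neither binding nor its absence.

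PR1 was not detected, PR2 was near the limit of detection, and PR5 was expressed at an ordinary level. PR1 (AT2G14610, chr2:6241640-6242541), a small secreted protein that serves as the standard marker of the salicylic acid response, had 0 reads in all 4 libraries. A count of 0 allows up to 3 reads in a library, which is on average 0.118 CPM, the count scaled to library size, or 0.203 TPM. PR2 (AT3G57260), a beta-1,3-glucanase, had 12, 7, 5 and 10 reads. PR5 (AT1G75040), a thaumatin-like protein, had 242, 232, 217 and 254 reads, or 13.2 ± 1.19 TPM (SD, n = 4). The PR5 libraries lay close together, and a chi-square test of their counts against library size found no spread beyond counting error (adjusted p = 0.373). On the per-length scale PR5 was at least 59.6-fold higher than PR1 in every library, with PR1 set at its floor of 3 reads per library. Summed over the libraries, PR5 exceeded PR2 37.5-fold per length (exact 95% interval 26.6 to 54.5, counting error only). PR1 has no overlapping gene and no copy of at least 90% identity over 100 bases in the annotation, so neither overlaps nor such copies touch its reads. In RNA of whole seedlings, fewer cells that express a gene and less RNA per cell cannot be told apart.

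**Figure D1:**
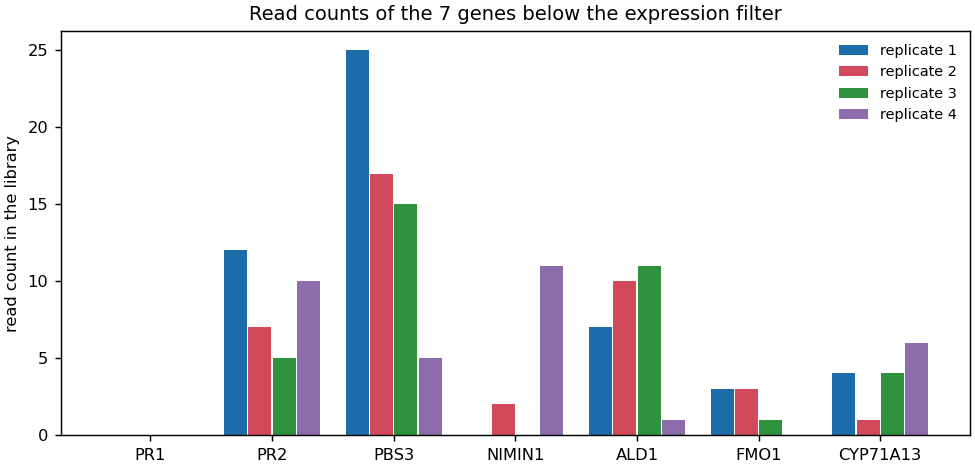
Read counts (vertical axis, from 0) of the 7 genes below the expression filter, with a bar for each of the 4 libraries. PR1 has no bar because all 4 counts are 0, PBS3 is the highest at 25 reads in replicate 1, and NIMIN1 has 11 reads in replicate 4 against 0 to 2 elsewhere.

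Among the salicylic acid synthesis genes, ICS1 and EDS5 were expressed at moderate levels and PBS3 was scarce. ICS1 (AT1G74710), the plastid isochorismate synthase, had 447, 352, 369 and 412 reads, a level of 11.1 ± 1.53 TPM. It was highest in replicate 1 and lowest in replicate 2, and the libraries differed beyond counting error (chi-square test, adjusted p = 0.00229). EDS5 (AT4G39030), the transporter that moves isochorismate out of the plastid, had 243, 307, 276 and 344 reads, a level of 7.90 ± 1.17 TPM. Its order was different, lowest in replicate 1 and highest in replicate 4 (chi-square test, adjusted p = 0.00248). The log2 ratio of ICS1 to EDS5 within a library was therefore 0.93 in replicate 1 and 0.25, 0.47 and 0.31 in replicates 2 to 4, with ICS1 the higher in all 4. PBS3 (AT5G13320), which joins glutamate to isochorismate, had 25, 17, 15 and 5 reads. Replicate 4 was the low library and replicate 1 the high one, beyond counting error (chi-square test, adjusted p = 0.0127). Summed over libraries ICS1 exceeded PBS3 30.6-fold per length (exact 95% interval 23.8 to 40.1, counting error only). That interval leaves out the spread between libraries, in which the log2 ratio ran from 4.40 in replicate 1 to 6.49 in replicate 4. Without replicate 1 the adjusted p became 0.112 for ICS1, 0.0625 for EDS5 and 0.109 for PBS3. Without replicate 4 it became 0.143 for EDS5 and 0.304 for PBS3, while the ICS1 call held. Exons of AT4G39040 on the opposite strand, a gene with 2255 to 2444 reads, cover 9.42% of the EDS5 exons.

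EDS1, PAD4 and SAG101, the lipase-like proteins that form EDS1-PAD4 and EDS1-SAG101 complexes, did not vary beyond counting error between libraries. EDS1 (AT3G48090), shared by both complexes, had 533, 542, 556 and 574 reads, a level of 13.2 ± 0.586 TPM. PAD4 (AT3G52430) had 250, 253, 238 and 226 reads, a level of 6.55 ± 0.342 TPM. SAG101 (AT5G14930) had 293, 279, 302 and 268 reads, a level of 7.92 ± 0.436 TPM. None of the 3 passed the chi-square test, with adjusted p from 0.492 to 0.681. Within a library EDS1 exceeded PAD4 by 1.01 ± 0.12 on the log2 TPM scale and SAG101 by 0.74 ± 0.11, and PAD4 lay below SAG101 by a log2 ratio of -0.27 ± 0.08, each in the same direction in 4 of 4 libraries. For such within-library ratios the exact two-sided sign-flip test gives its smallest possible p, 0.125, whenever all 4 libraries have the same sign, so no pair of genes here can reach 0.05.

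The salicylic acid receptors had near-equal transcript levels. NPR1 (AT1G64280), the coactivator of salicylic acid targets, had 774, 765, 712 and 748 reads, a level of 17.5 ± 0.981 TPM. NPR3 (AT5G45110), a repressing receptor, had 746, 690, 710 and 723 reads at 16.5 ± 1.01 TPM. NPR4 (AT4G19660), the other repressing receptor, had 724, 814, 778 and 786 reads at 19.9 ± 0.650 TPM. The ranges of NPR1 and NPR3 over libraries overlapped, although NPR1 was the higher within each of the 4, by a log2 ratio of 0.09 ± 0.06. NPR4 lay above both within each library, with a log2 ratio of -0.19 ± 0.10 for NPR1 to NPR4 and -0.28 ± 0.12 for NPR3 to NPR4. Counts of the 3 receptors did not vary beyond counting error (chi-square test, adjusted p from 0.267 to 0.495). NIMIN1 (AT1G02450), a small protein that binds NPR1 and is itself a salicylic acid target, had 0, 2, 0 and 11 reads. Replicate 4 thus held 11 of its 13 reads, too few to enter the test with its minimum of 10 expected counts per library. A long non-coding gene, AT1G08667, lies on the opposite strand over 8.19% of the NPR1 exons, and it had 0 reads in every library.

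The calmodulin-binding-type factors SARD1 and CBP60g, which act on the ICS1 promoter, differed widely in level. SARD1 (AT1G73805) had 25, 30, 25 and 26 reads, a level of 0.687 ± 0.0499 TPM, and was the lowest gene that passed the filter. Its 4 counts lay within counting error of each other, with the highest p of the 31 genes tested (chi-square test, adjusted p = 0.940). CBP60g (AT5G26920) had 238, 195, 202 and 162 reads, a level of 5.29 ± 0.890 TPM. It was highest in replicate 1 and lowest in replicate 4, a spread beyond counting error (chi-square test, adjusted p = 0.00448) that was lost without replicate 1 (0.226) or replicate 4 (0.0825). Relative to CBP60g, SARD1 had a log2 ratio of -2.93 ± 0.28. Exons of AT1G73790 on the opposite strand cover 18.4% of the SARD1 exons, and that gene had 126 to 167 reads.

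**Figure D2:**
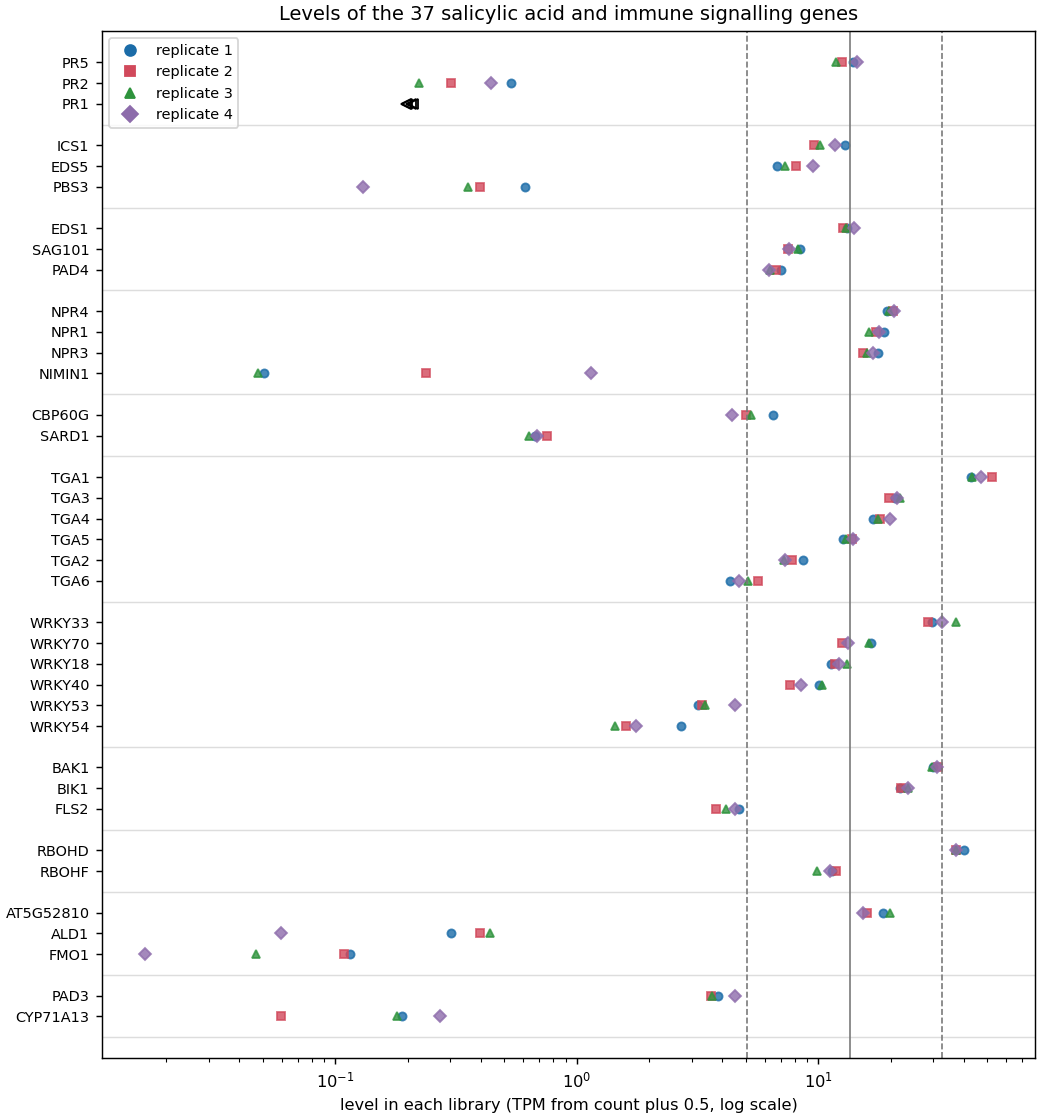
Level of each of the 37 genes in each library (horizontal axis, TPM from the count plus 0.5, log scale), grouped by role with the highest gene of each role on top. The solid line is the median gene kept (13.6 TPM), the dashed lines are the quartiles (5.07 and 32.7 TPM), and the open triangles for PR1 are its floors of 3 reads per library.

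TGA1 was the highest of all the genes described here and the one whose counts departed most from counting error. TGA1 (AT5G65210, chr5:26057533-26061157), a bZIP factor that acts with TGA4 in basal resistance, had 2019, 2618, 2137 and 2249 reads, a level of 46.5 ± 4.47 TPM. Replicate 2 stood above the other 3, at 101 CPM against 80.8, 84.0 and 88.8 in replicates 1, 3 and 4 (chi-square test, adjusted p = 2.61e-13). Without replicate 2 the adjusted p was 0.0268, so the call held, with a smaller spread. Replicate 2 was also the library with the most reads of the storage protein genes CRA1 and CRC and of 2 of the 4 root markers, PYK10 and COBL9, whereas the root markers SHR and SCR were highest in replicates 4 and 1. Their part in the TGA1 value was not tested. TGA4 (AT5G10030), the close relative of TGA1, had 731, 828, 810 and 870 reads at 18.1 ± 1.25 TPM. It was highest in replicate 4, and its call (chi-square test, adjusted p = 0.0400) was lost without replicate 1 (0.352) or replicate 4 (0.249). Within a library TGA1 exceeded TGA4 by a log2 ratio of 1.36 ± 0.13.

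The remaining TGA factors were lower. TGA2 (AT5G06950), TGA5 (AT5G06960) and TGA6 (AT3G12250) are redundant partners of NPR1 and are needed for induction of PR1. TGA2 had 326, 310, 284 and 277 reads at 7.74 ± 0.682 TPM, and TGA5 had 341, 396, 372 and 382 reads at 13.4 ± 0.633 TPM. Neither varied beyond counting error (chi-square test, adjusted p = 0.193 and 0.514). TGA6 had 161, 225, 203 and 179 reads at 4.95 ± 0.580 TPM, low in replicate 1 and high in replicate 2 (chi-square test, adjusted p = 0.0468). This was the weakest call of the set, and it was lost without replicate 1 (0.242), without replicate 2 (0.214) and with unscaled library totals (0.0829). Within a library the log2 ratio of TGA2 to TGA5 was -0.79 ± 0.17 and that of TGA2 to TGA6 was 0.65 ± 0.26. When the longest transcript set the length, these ratios became -0.58 and 0.45. TGA3 (AT1G22070), from a separate clade that also binds NPR proteins, had 655, 656, 724 and 678 reads at 20.8 ± 0.935 TPM, and its libraries did not differ beyond counting error (chi-square test, adjusted p = 0.252). TGA1 exceeded TGA3 by a log2 ratio of 1.16 ± 0.19, or 1.44 when the longest transcript set the length. Exons of a long non-coding gene on the opposite strand, with 0 to 2 reads per library, cover 10.9% of the TGA6 exons. Exons of AT3G12260, also on the opposite strand and with 2582 to 2925 reads, cover 1.86%.

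WRKY33 and WRKY70 led the WRKY factors, and the replicates did not rank them alike. WRKY33 (AT2G38470, chr2:16108235-16110766), which drives camalexin synthesis downstream of the immune MAP kinases, had 949, 976, 1258 and 1057 reads, a level of 31.9 ± 3.84 TPM. Replicate 3 stood above the others, at 49.5 CPM against 38.0, 37.7 and 41.8 in replicates 1, 2 and 4 (chi-square test, adjusted p = 1.51e-10). The call rested on replicate 3, since the adjusted p without it was 0.0934. WRKY53 (AT4G23810), a factor of leaf senescence and defence, had 76, 84, 86 and 110 reads at 3.61 ± 0.627 TPM, highest in replicate 4 but not beyond counting error (chi-square test, adjusted p = 0.119). WRKY33 exceeded WRKY53 by a log2 ratio of 3.15 ± 0.25. Exons of AT4G23800 on the opposite strand, a gene with 1806 to 2296 reads, cover 20.5% of the WRKY53 exons.

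WRKY70 (AT3G56400, chr3:20908711-20910623), which promotes salicylic acid targets and restrains jasmonate targets, had 385, 311, 399 and 313 reads, a level of 14.6 ± 2.02 TPM. Replicates 1 and 3 were high and replicates 2 and 4 low (chi-square test, adjusted p = 6.46e-04), and the call held without each replicate in turn (0.00300 to 0.0112). WRKY54 (AT2G40750), its closest relative, had 61, 38, 34 and 40 reads at 1.87 ± 0.567 TPM. Replicate 1 alone was high for WRKY54 (chi-square test, adjusted p = 0.0301), and the adjusted p rose to 0.845 without replicate 1 and to 0.0599 without replicate 3. The log2 ratio of WRKY70 to WRKY54 was 3.00 ± 0.37, from 2.61 in replicate 1 to 3.50 in replicate 3.

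WRKY18 and WRKY40 restrain defence genes, partly as paired proteins. WRKY18 (AT4G31800) had 362, 399, 445 and 397 reads at 12.1 ± 0.809 TPM, with no spread beyond counting error (chi-square test, adjusted p = 0.103). WRKY40 (AT1G80840) had 212, 170, 230 and 181 reads at 9.16 ± 1.31 TPM. It followed the order seen for WRKY70, higher in replicates 1 and 3 than in 2 and 4 (chi-square test, adjusted p = 0.0149), but that call was lost without replicate 2 (0.116) or replicate 3 (0.0939). The log2 ratio of WRKY18 to WRKY40 was 0.41 ± 0.20, above 0 in 4 of 4 libraries. It became 0.63 when the longest transcript set the length.

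Of the receptor complex genes, the receptor itself was the least abundant. FLS2 (AT5G46330), the receptor kinase for bacterial flagellin, had 317, 269, 294 and 308 reads, a level of 4.28 ± 0.417 TPM. BAK1 (AT4G33430), the co-receptor that it shares with the brassinosteroid receptor and others, had 1366, 1515, 1417 and 1430 reads at 30.4 ± 0.846 TPM. BIK1 (AT2G39660), the cytoplasmic kinase released on activation, had 689, 737, 786 and 752 reads at 22.7 ± 0.975 TPM. The log2 ratio of FLS2 to BAK1 was -2.83 ± 0.16 and that of FLS2 to BIK1 was -2.41 ± 0.15, negative in 4 of 4 libraries each. Counts of none of the 3 varied beyond counting error (chi-square test, adjusted p from 0.158 to 0.403).

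RBOHD (AT5G47910), the NADPH oxidase that BIK1 phosphorylates to produce the apoplastic oxidative burst, was the highest gene here after TGA1. It had 2298, 2263, 2253 and 2164 reads, a level of 38.0 ± 1.41 TPM, and at this depth its libraries still did not differ beyond counting error (chi-square test, adjusted p = 0.161). RBOHF (AT1G64060), which acts with RBOHD in defence and stomatal signalling, had 722, 797, 661 and 718 reads at 11.1 ± 0.832 TPM. It was high in replicate 2 and low in replicate 3 (chi-square test, adjusted p = 0.0377), a call lost without replicate 2 (0.202) or replicate 3 (0.381). RBOHD exceeded RBOHF by a log2 ratio of 1.78 ± 0.11.

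**Figure D3:**
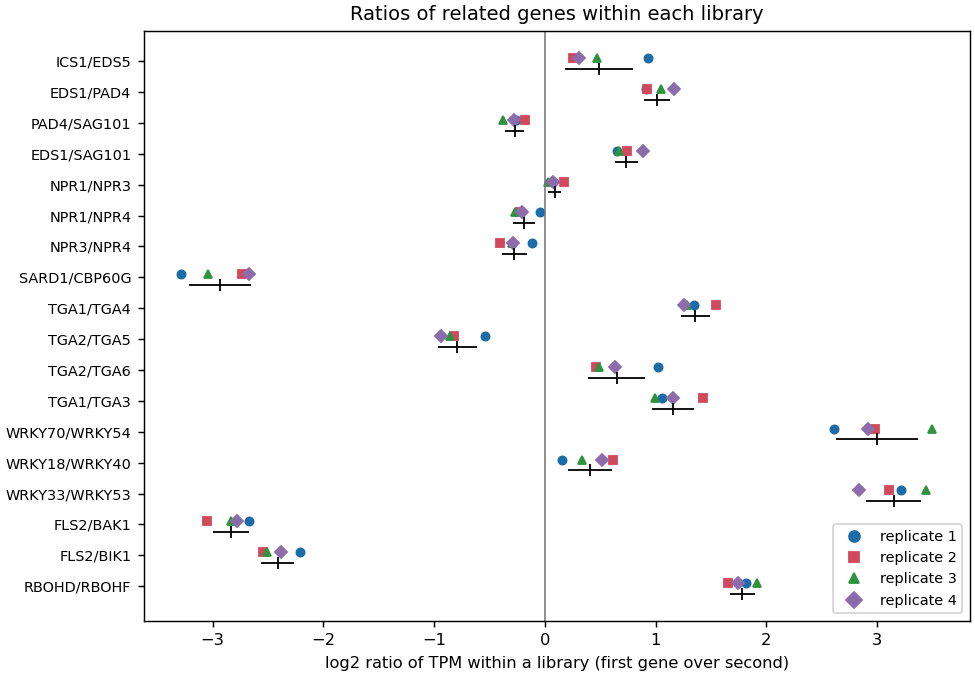
Log2 ratio of TPM of 18 pairs of related genes within each library (horizontal axis), for pairs with at least 10 counts of both genes in every library, with the mean and SD over the 4 libraries as a tick and bar below the points. No pair changes sign between libraries. Replicate 1 lies above the other 3 for ICS1/EDS5, TGA2/TGA6, TGA2/TGA5, NPR1/NPR4, NPR3/NPR4, FLS2/BAK1 and FLS2/BIK1.

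Of the genes listed under pipecolic acid synthesis, ALD1 and FMO1 were close to 0 reads, and AT5G52810 was not. ALD1 (AT2G13810), the aminotransferase that starts the route from lysine, had 7, 10, 11 and 1 reads. FMO1 (AT1G19250), the monooxygenase that makes N-hydroxypipecolic acid, had 3, 3, 1 and 0 reads. Both were lowest in replicate 4, with counts too low for the test. AT5G52810, annotated as an NAD(P)-binding Rossmann-fold superfamily protein, had 401, 365, 449 and 335 reads, a level of 17.4 ± 2.11 TPM. It was again higher in replicates 1 and 3 than in 2 and 4 (chi-square test, adjusted p = 0.00107), and the adjusted p without replicate 3 was 0.0750. Summed over libraries, AT5G52810 exceeded ALD1 61.9-fold per length (exact 95% interval 42.9 to 92.8, counting error only). That interval leaves out the spread between libraries. The log2 ratio of ALD1 to AT5G52810 ran from -5.33 in replicate 2 to -8.02 in replicate 4. ALD1 exceeded FMO1 5.05-fold per length over the summed libraries (2.16 to 13.7, counting error only). A gene on the same strand, AT5G52800, covers 6.56% of the AT5G52810 exons and had 28 to 38 reads.

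Camalexin, the indole phytoalexin of Arabidopsis, is made through CYP71A13 and PAD3. PAD3 (AT3G26830), the last enzyme, had 108, 107, 108 and 129 reads, a level of 3.90 ± 0.434 TPM, with no spread beyond counting error (chi-square test, adjusted p = 0.437). CYP71A13 (AT2G30770), which acts upstream of PAD3, had 4, 1, 4 and 6 reads, below the test's minimum. Per length PAD3 exceeded CYP71A13 25.3-fold over the summed libraries (exact 95% interval 15.2 to 45.6, counting error only). Within a library their log2 ratio ran from 4.07 in replicate 4 to 5.91 in replicate 2. The PAD3 transcript had the higher measured level of the pair in every library. CYP71A13 shares 90.5% of 1489 aligned bases with CYP71A12, and 22.1% of its exons lie under AT2G30766 on the opposite strand, so reads may be split between these genes.

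As a set, the genes that passed the filter sat near the middle of the transcriptome. Their median log2 TPM was 3.65, with an SD of 0.03 over the libraries, and that of the genes kept was 3.76. With the 7 scarce genes included the median was 3.18, for which no median of all genes without the filter is given. Of the 30 genes, 12 lay above the median gene and 18 below, 2 (TGA1 and RBOHD) exceeded the upper quartile of 32.7 TPM, and 6 fell under the lower quartile of 5.07 TPM. Those 6 were TGA6, FLS2, PAD3, WRKY53, WRKY54 and SARD1. In the order of levels, TGA1, RBOHD, WRKY33, BAK1 and BIK1 led, and WRKY53, WRKY54 and SARD1 closed. Of the 29 neighbours in that order, 22 had overlapping ranges over the libraries. The 7 steps without overlap came after TGA1, RBOHD, BAK1, BIK1, TGA2, WRKY53 and WRKY54. Summed over all 37 genes, the libraries held 677 ± 5.30 CPM.

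The chi-square test called 13 of the 31 genes that had at least 10 expected counts in every library, or 41.9%, and it called 42.8% of all 20687 genes tested. The share called was thus near that of all genes. Without replicate 1 the test called 6 of 31 (26.6% of all genes), and without replicate 3 it called 8 of 31 (30.9% of all genes). The 13 were the 3 synthesis genes ICS1, EDS5 and PBS3, CBP60g, 3 of 6 TGA factors, 4 of 6 WRKY factors, RBOHF and AT5G52810. None of the EDS1 node, NPR or receptor complex genes was called, with 3 of 3 tested in each of these roles. Among genes with mean counts of 218 to 733, the middle range of depth, 5 of 15 genes described here and 37.7% of 6529 genes were called. The biological coefficient of variation is edgeR's estimate of the spread between libraries left after counting error. Each gene's value is drawn toward edgeR's trend for genes of like abundance, so it is not the gene's own spread alone. The coefficient had a median of 0.0831 against 0.0807 for all genes kept. It exceeded edgeR's trend for genes of like abundance in 10 of 30 genes (33.3%), against 34.2% of all genes.

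**Figure D4:**
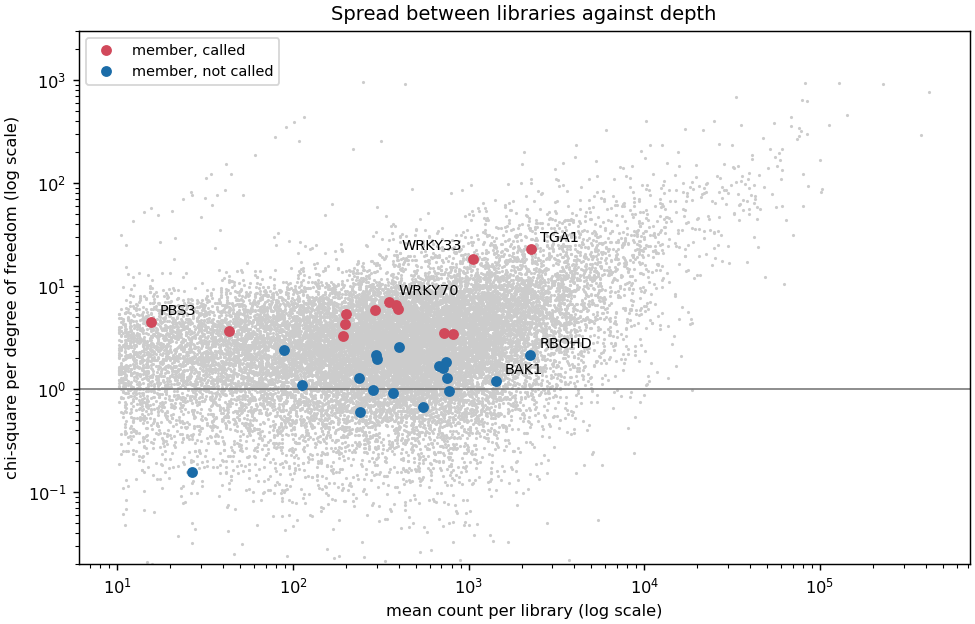
Chi-square per degree of freedom over the 4 libraries (vertical axis, log scale, with 1 the value that counting error alone gives) against the mean count per library (horizontal axis, log scale), for all 20687 genes tested in grey and 31 genes described here in colour. TGA1 and WRKY33 lie highest among the called genes, while RBOHD has nearly the depth of TGA1 and was not called.

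Which library was high or low differed from gene to gene. Replicate 1 was the highest library for 9 of 30 genes, replicate 2 for 7, replicate 3 for 8 and replicate 4 for 6, and the corresponding shares of all genes kept ran from 22.0% to 28.8%. Replicate 1 was the lowest library for 10 genes and replicate 2 for 9. Replicates 3 and 4 were lowest for 5 and 6, or 3 in replicate 4 with unscaled library totals, and the shares of all genes kept ran from 22.8% to 28.6%. The called genes showed several different orders, and the share of all genes with each order is not given here. WRKY70, WRKY40 and AT5G52810 were high in replicates 1 and 3 and low in 2 and 4, while ICS1, CBP60g, PBS3 and WRKY54 were highest in replicate 1, and TGA1, TGA6 and RBOHF in replicate 2. EDS5 and TGA4 were lowest in replicate 1 and highest in replicate 4.

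**Figure D5:**
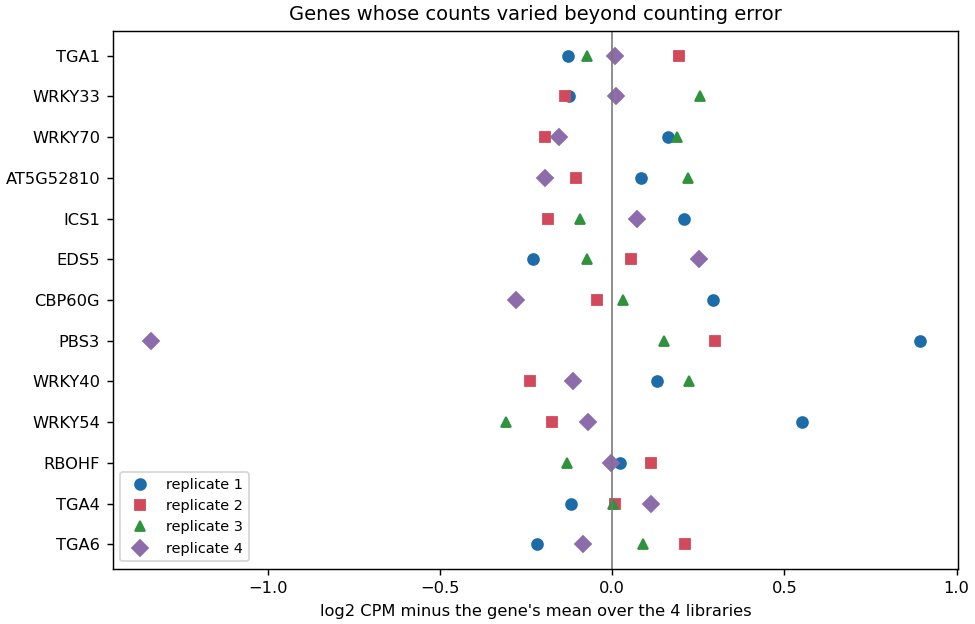
Deviation of each library from the gene's mean over the 4 libraries (horizontal axis, log2 CPM), for the 13 genes called by the chi-square test, ordered from the largest chi-square at the top. PBS3, with 5 to 25 reads, has the widest spread, and TGA1 and WRKY33 each have 1 library (replicate 2 and replicate 3) that lies above the rest.

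Beyond these genes, a list of 53 others from the same pathways was examined in the same way, covering salicylic acid conversion, further receptors, kinases and camalexin precursors. Of these, 48 passed the filter, and their median level was 14.5 TPM. The chi-square test called 21 of 50 tested, or 42.0%, again near the share of all genes. The highest was GGP1 (AT4G30530), a peptidase of glucosinolate and camalexin synthesis, at 206 ± 8.27 TPM. The lowest was BSMT1 (AT3G11480), which methylates salicylic acid, with 0 reads in every library. PAL1 (AT2G37040), the phenylalanine ammonia-lyase that opens the phenylpropanoid route, had the largest departure from counting error. It had 7954, 9653, 8000 and 9154 reads, high in replicates 2 and 4 (chi-square test, adjusted p = 2.41e-40). UGT76B1 (AT3G11340), a glucosyltransferase that acts on salicylic acid and N-hydroxypipecolic acid, had 400, 658, 571 and 607 reads. Replicate 1 was the low library for UGT76B1 (chi-square test, adjusted p = 2.21e-11). CYP79B2 (AT4G39950), which makes the indole precursor of camalexin, had 1530, 1777, 1460 and 1751 reads, with the same libraries high as for PAL1 (chi-square test, adjusted p = 2.25e-07).

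Markers of the jasmonate and ethylene branch, which often opposes salicylic acid signalling, gave a mixed picture. PR4 (AT3G04720), a chitin-binding protein, had 2161, 2863, 2344 and 2332 reads at 130 ± 13.4 TPM and was highest in replicate 2, as TGA1 was (chi-square test, adjusted p = 1.73e-17). PDF1.2a (AT5G44420), a defensin, had 19, 16, 3 and 12 reads, and VSP2 (AT5G24770), a jasmonate target, had 69, 35, 50 and 63. Both varied beyond counting error, PDF1.2a with a low count in replicate 3 and VSP2 in replicate 2 (chi-square test, adjusted p = 0.0236 and 0.0107). LOX3 (AT1G17420), a lipoxygenase of jasmonate synthesis, had 233, 236, 231 and 242 reads and did not vary beyond counting error (chi-square test, adjusted p = 0.951).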

How the data were processed

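Poly(A) RNA was sequenced from directional libraries on a NextSeq500, per the labels. The authors deposited unnormalised read counts for each gene. Reads were aligned to TAIR10 and counted with HISAT2 2.1.0 and featureCounts 1.6.0, per the submitters' processing notes. Whether strand was used, and how reads with several positions were treated, is not given in the sources used here, so the counts of overlapping genes and of copies are uncertain. The genes and gene lists were chosen with earlier results of these data known. All 37 genes were named, and of the other pathway genes the highest, the lowest and the called genes with the largest chi-square.

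With 1 group of 4 libraries, no groups could be compared. Counts of each gene were tested for homogeneity over libraries by chi-square, with expected counts in proportion to TMM-scaled library sizes (edgeR 4.0.16, R 4.3.3), for genes expected to have 10 or more counts in every library. P-values were Benjamini-Hochberg adjusted over all genes tested and called at 0.05 (Python 3.11.15, scipy 1.17.1, statsmodels 0.14.6). Adjusted p-values measure only the spread between these samples, and how their seedlings were grouped is not stated. The test was checked on simulated data with counting error alone, with changes added to well-counted genes only. Changes in scarce genes were not simulated. TPM used the count plus 0.5 and merged exon lengths of the TAIR10.1 annotation, which matched 37882 of 37885 identifiers. Intervals and floors cover counting error only. Copies were sought with BLAST 2.17.0. Alternatives were DESeq2 1.42.0 size factors, unscaled totals, other minimum counts, thresholds, lengths and pseudocounts, and leaving out each replicate. Of the windows before gene starts, 1 is not reported here.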

Additional observations from a re-analysis of the deposited data

Results flagged for a closer look

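Among 28 values screened (marker genes, and summed CPM of the immune genes by role and in all), 2 had a library far from the rest, and both were seed storage genes in replicate 2. For CRA1 the gap between replicate 2 and the next library was 0.941 of the whole range, and for CRC it was 0.998, both above the 95% critical value of Dixon's test. Both genes belong to embryo storage proteins and were marker checks, not immune genes. Of the 36 immune genes with a read, 0 had such a library. Chance flags about 1 in 20 groups.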

How the results depend on the processing

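The number of genes called among the 31 tested was 13 with DESeq2 size factors (42.8% of all genes) and 12 with unscaled totals (44.2% of all genes). It was 7 at a threshold of 0.01, where 5896 of all genes (28.5%) were called. Leaving out each replicate in turn gave 6 to 10 of the genes described here and 5515 to 7376 of all genes (26.6% to 35.7%). Replicate 1 left out gave the fewest, since PBS3, ICS1, EDS5, CBP60g, TGA4, TGA6 and WRKY54 were then lost. TGA1 and WRKY70 were called under every alternative run. With no minimum of expected counts the test called 13 of 36 genes described here and 35.5% of all genes. NIMIN1 was then called and TGA6 was not. The NIMIN1 call rests on 13 reads in all, fewer than the test otherwise requires, and is uncertain. The median log2 level of the set was 3.18 with all 37 genes, with no unfiltered median of all genes to set beside it. The median was 3.90 as CPM with no length (4.02 for all genes kept). It was 3.69 with the longest transcript as length (3.76 for all genes kept). Genes lowest in replicate 4 numbered 3 in place of 6 with unscaled totals. Where a call was lost, the cause was not tested. No result changed direction. No paired analysis was possible because the libraries form a single group. Counts of 0 to 12 reads per library limit PR1, PR2, NIMIN1, ALD1, FMO1 and CYP71A13.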

Other observations

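Some values of the further pathway genes were noticed only after they had been seen. WRKY46 (AT2G46400), a relative of WRKY70, had 40, 21, 37 and 19 reads, and CYP71A12 (AT2G30750), the close copy of CYP71A13, had 89, 54, 81 and 43. Both were high in replicates 1 and 3 and low in 2 and 4, the order seen for WRKY70, WRKY40 and AT5G52810 (chi-square test, adjusted p = 0.0174 and 3.39e-04). The share of all genes with this order is not given here, so the order is not shown to be particular to immune genes. CYP71A12 had more reads than CYP71A13, with which it shares 90.5% of 1489 aligned bases, in each library. BON1 (AT5G61900), a membrane-binding protein that restrains immune signalling, had 0, 1, 1 and 0 reads. In the TAIR10.1 annotation 94.4% of its exon bases are shared with AT5G61910 on the same strand, so the scarcity of its reads says little about its level.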
